A study of Mus musculus with 6 samples.

Results

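The genes described here are the 3 mouse Runx transcription factors Runx1, Runx2 and Runx3, their shared partner Cbfb, the osteoblast transcription factor Sp7 (osterix) and the coactivator Fhl2. They were chosen by name and matched by symbol to 6 of the 55401 Ensembl genes in the counts table, of which 29043 had at least 1 count. C3H10T1/2 is a mouse mesenchymal stem cell line, and RNA-seq was done on its derivatives with a control short hairpin RNA (shControl), a hairpin against the 3′ UTR of Nfib (shNFIB) or a hairpin against MLL1, the product of Kmt2a (shMLL1). Each line was sampled at confluence before induction (day 0) and on day 7 of culture with osteogenic supplements: dexamethasone at 0.1 µM, ascorbic acid 2-phosphate at 100 µg/ml and β-glycerophosphate at 20 mM. All 3 lines carry a hairpin, and whether each is a clone or a pool is not given in the sources used here. Each of the 6 conditions had 1 library, with 21608680 to 34774066 counts, so a difference between a pair of libraries has no replicate check and no p-value.

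Runx proteins bind DNA through the Runt domain, and Cbfb, which does not touch DNA itself, strengthens that binding. Runx2 is required for bone formation and acts upstream of Sp7, which is required for the step from committed precursor to osteoblast. Runx1 is best known from blood formation and Runx3 from neurons, T cells and cartilage, and both are also made in skeletal precursors. Fhl2 consists of LIM domains, has no DNA-binding domain of its own, and is known as a coactivator that binds Runx2, β-catenin and other factors.

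Levels are given as CPM, read counts scaled to a common library size, with TMM factors that correct for differences in library composition. Each interval is an exact 95% interval for counting error alone, and reads are not independent molecules. A gene is called past 2-fold in a pair of libraries when its log2 ratio is above 1 or below -1 and at least 1 of the libraries has 10 or more counts. Nfib was at 35.3 CPM in shNFIB at day 0 and 116 CPM in shControl, and at day 7 it was at 8.15 and 83.5 CPM. Kmt2a was at 30.9 CPM in shMLL1 at day 0 and 74.7 CPM in shControl, and at day 7 it was at 34.8 and 66.3 CPM. In shMLL1 at day 0, Nfib was at 65.5 CPM, below shControl. All 10 mesenchymal markers had at least 10 counts in every library, with a summed level of 8544 to 21510 CPM.

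Runx2 was at almost the same level in the 3 lines before induction and stood apart in shControl at day 7 (see the plot of levels by library). The gene (ENSMUSG00000039153) lies at chr17:44495987-44814797 on the minus strand of GRCm38. At day 0 it had 1047 counts (32.8 CPM, interval 30.8 to 34.8) in shControl, 993 counts (31.4 CPM) in shNFIB and 972 counts (32.2 CPM) in shMLL1. At day 7 it had 3561 counts (117 CPM, interval 113 to 121) in shControl, 898 counts (30.4 CPM) in shNFIB and 862 counts (35.3 CPM) in shMLL1. The shControl library of day 7 was thus the highest by a wide margin, and the intervals of the other 5 libraries lay between 28.4 and 37.8 CPM.

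**Figure D1:**
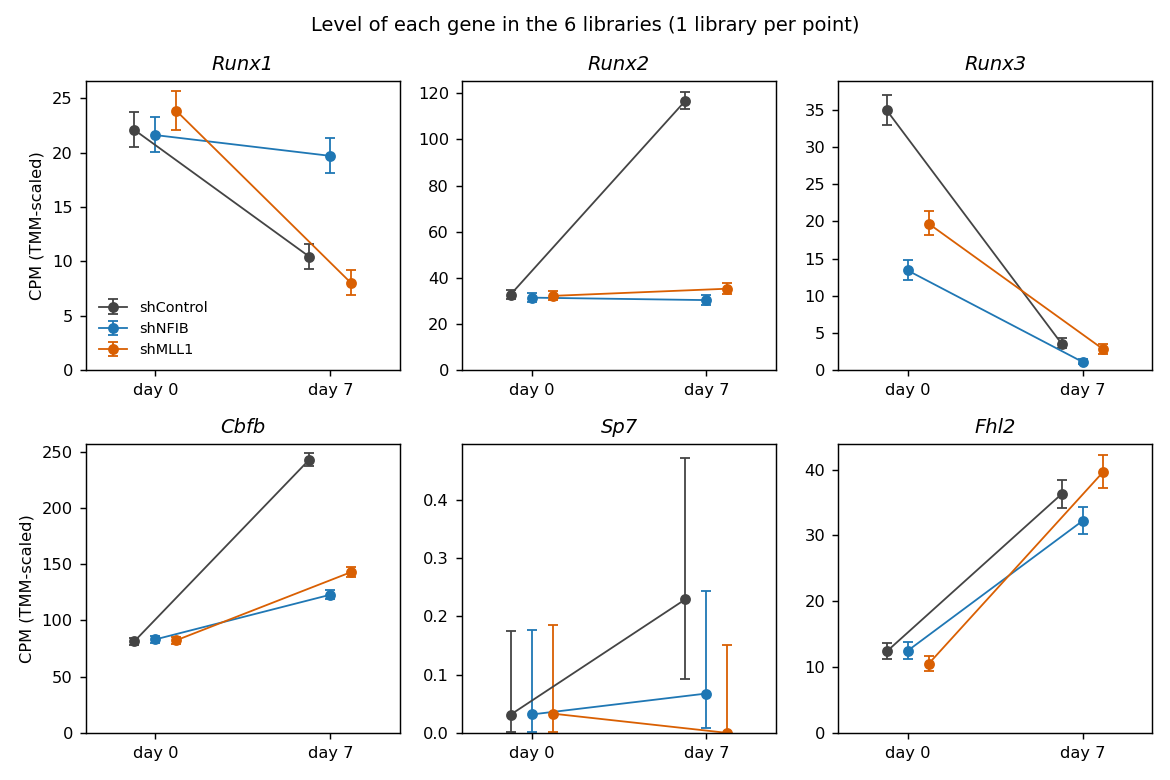
Level of the 6 genes in CPM after TMM scaling (vertical axis, from 0) at day 0 and day 7 (horizontal axis) in shControl, shNFIB and shMLL1; each point is 1 library and bars are 95% counting intervals. Runx2 is at 117 CPM in shControl at day 7 and at 30.4 to 35.3 CPM in the other 5 libraries, while Fhl2 is higher and Runx3 lower at day 7 in all 3 lines.

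In shControl, Runx2 was 3.56-fold higher at day 7 than at day 0, a log2 ratio of 1.83 (1.73 to 1.93). The log2 ratio was -0.05 (-0.18 to 0.08) in shNFIB, and in shMLL1 it was 0.13 with an interval that reached 0.27 and included 0. The day response of shNFIB was 1.88 log2 units below that of shControl, a difference of -1.88 (-2.05 to -1.72), and that of shMLL1 differed from shControl by -1.70 (-1.87 to -1.53). Between the knockdown lines, the responses differed by 0.18, with an interval that included 0 and reached 0.37.

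At day 0 neither knockdown line differed from shControl in Runx2 beyond counting error, the log2 ratio being -0.06 (-0.19 to 0.07) for shNFIB and -0.03 (-0.15 to 0.10) for shMLL1. At day 7 Runx2 was 3.85-fold lower in shNFIB than in shControl (log2 ratio -1.94, interval -2.05 to -1.84). It was 3.31-fold lower in shMLL1 (log2 ratio -1.73, interval -1.83 to -1.62). Of 14672 genes with enough counts in all 4 comparisons, 97 (0.661%) were within 2-fold of shControl at day 0 and past 2-fold lower at day 7 in both knockdown lines, as Runx2 was. These comparisons share the shControl libraries, so they are not independent of each other. All Runx2 comparisons with shControl at day 7 rest on that 1 library.

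Of the marker lists of other cell types, the adipocyte sum was, like Runx2, highest in shControl at day 7. The hematopoietic sum was also highest there, at 8.59 CPM, but next to 8.32 CPM in shMLL1 at day 7. The chondrocyte and endothelial sums did not follow Runx2. The summed level of 8 adipocyte markers went from 51.0 CPM at day 0 to 200.1 CPM at day 7 in shControl, from 63.5 to 94.1 CPM in shNFIB and from 18.2 to 32.0 CPM in shMLL1. In shControl at day 7, Cfd had 2129 counts, Lpl 1084, Cidec 681 and Plin1 472, against at most 6 at day 0. The other markers did not share this: Pparg went from 867 to 1279 counts in shControl and from 1647 to 2489 in shNFIB, where it was highest, Cebpa from 608 to 313 in shControl and Fabp4 from 148 to 141. Adipoq, a defining adipocyte marker, had 0 counts in every day 7 library. Summed chondrocyte markers went from 418 to 162.5 CPM in shControl, 272 to 103 CPM in shNFIB and 84.6 to 125 CPM in shMLL1, and Acan, a defining cartilage gene, was at 0 in all 6 libraries. Summed hematopoietic markers were at 1.65 to 8.59 CPM, with Cd3e and Tal1 at 0 throughout, and 10 or more counts were seen for at most 3 of 10 genes. Endothelial markers summed to 2.76 to 25.4 CPM, and nearly all of it in the highest library was Tek, with Kdr at 0 in 5 libraries. The part of these cells in the Runx2 result was not tested, and in bulk RNA fewer cells of a type and less RNA per cell cannot be told apart.

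Runx genes are known for alternative promoters, and the first promoters of the 3 genes hold the same word. RefSeq promoter windows (GRCm38.p6, 250 bases before to 50 after a transcript start) were found for 5 of the 6 genes, in 8 windows. The first promoters of Runx1, Runx2 and Runx3 are printed because an 18-base word that holds the Runx motif at 2 places is common to all 3. The capitals mark the Runx motif TGTGGT, read on either strand (ACCACA on the printed strand), and its variant TGCGGT.
Runx1 distal, chr16:92826025-92826324, minus strand: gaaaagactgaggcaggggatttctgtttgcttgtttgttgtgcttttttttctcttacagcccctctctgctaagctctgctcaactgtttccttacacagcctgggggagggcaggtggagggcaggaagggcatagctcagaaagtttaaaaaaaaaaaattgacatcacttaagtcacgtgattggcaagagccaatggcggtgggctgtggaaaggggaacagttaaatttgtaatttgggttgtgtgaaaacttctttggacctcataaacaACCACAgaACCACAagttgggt
Runx2, chr17:44814578-44814877, minus strand: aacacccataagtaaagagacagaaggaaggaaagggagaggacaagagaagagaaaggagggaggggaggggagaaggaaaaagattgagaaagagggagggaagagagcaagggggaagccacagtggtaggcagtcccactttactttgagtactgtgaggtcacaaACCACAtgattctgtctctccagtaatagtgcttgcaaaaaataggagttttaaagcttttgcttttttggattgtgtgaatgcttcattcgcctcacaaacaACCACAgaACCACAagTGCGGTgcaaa
Runx3 distal, chr4:135120395-135120694, plus strand: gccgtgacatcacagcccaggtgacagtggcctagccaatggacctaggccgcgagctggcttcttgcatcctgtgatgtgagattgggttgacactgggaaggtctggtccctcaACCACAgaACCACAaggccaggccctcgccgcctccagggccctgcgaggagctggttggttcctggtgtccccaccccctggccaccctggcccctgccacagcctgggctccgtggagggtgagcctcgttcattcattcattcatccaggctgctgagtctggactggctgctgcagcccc
The shared word is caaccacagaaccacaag. It begins at base 27 after the transcript start in Runx1, at base 22 in Runx2 and 136 bases before the start in Runx3. Runx1 and Runx2 share a longer run of 22 bases, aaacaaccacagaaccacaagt, that includes it. On either strand the 18-base word was in 4 of 32851 promoter windows (0.0122%), those of the 3 Runx genes and of Gm16225, whose window overlaps that of Runx3 on the other strand. The word was looked for after the sequences had been read.

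The motif TGTGGT alone was in 16.8% of all windows and TGCGGT in 6.45%. Runx2 held TGTGGT at 3 places and TGCGGT at 1, and Runx1 and Runx3 each held TGTGGT at 2 places in the distal window and at none in the proximal one. The NFI site in its shorter form, TTGGCA, was in 14.1% of windows and, among the 8 windows here, in the distal window of Runx1 only, 64 bases before the start. The full palindromic NFI site (0.0365% of windows) and the homeobox motif TAATTA (5.29%) were in none of the 8. The GC box GGGCGG was in 35.7% of all windows, at 4 places in Cbfb, at 3 in the proximal window of Runx3 and at 3 in the proximal window of Fhl2. A match is a run of letters and does not show that a factor binds there, and these counts of whole genes do not tell which promoter was used.

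**Figure D2:**
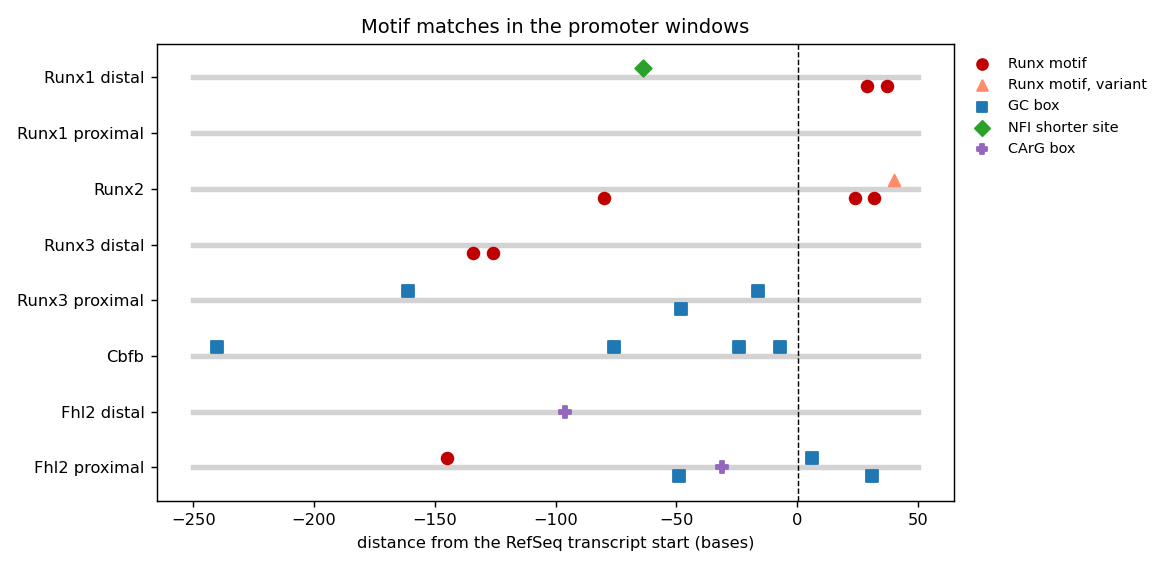
Motif matches in 8 RefSeq promoter windows of Runx1, Runx2, Runx3, Cbfb and Fhl2, by distance in bases from the transcript start (dashed line); symbols above a line are on the strand of the gene, those below on the other strand, and those on the line read the same way on both. Pairs of Runx motifs stand in the first windows of Runx1, Runx2 and Runx3, and a single one stands in the proximal window of Fhl2. GC boxes stand in Cbfb and in the proximal windows of Runx3 and Fhl2.

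In every line Runx3 was lower at day 7, and at day 0 it was already lower in both knockdown lines. The gene (ENSMUSG00000070691) lies at chr4:135120652-135177990 on the plus strand. At day 0 it had 1115 counts (34.9 CPM) in shControl, 423 counts (13.4 CPM) in shNFIB and 594 counts (19.7 CPM) in shMLL1, and at day 7 it had 109 counts (3.58 CPM), 33 counts (1.1 CPM) and 68 counts (2.79 CPM). The days did not overlap: the highest day 7 library, shControl, was below the lowest day 0 library, shNFIB. How many of all genes had days apart in this way is not given here. At day 7 Runx3 was 9.75-fold lower than at day 0 in shControl (log2 ratio -3.29, interval -3.58 to -3.00), 12.0-fold in shNFIB (-3.58, interval -4.14 to -3.07) and 7.05-fold in shMLL1 (-2.82, interval -3.20 to -2.46). Of 15358 genes with enough counts in the 3 lines, 6.92% were past 2-fold lower at day 7 in all of them.

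Against shControl at day 0, Runx3 was 2.61-fold lower in shNFIB (log2 ratio -1.38, interval -1.55 to -1.22) and 1.77-fold lower in shMLL1 (-0.83, interval -0.97 to -0.68). At day 7 the ratio was -1.68 (-2.29 to -1.11) in shNFIB, and in shMLL1 it was -0.36 (-0.82 to 0.09). Of the 5 genes with enough counts, Runx3 alone was past 2-fold lower in a knockdown line before induction. Its difference between shNFIB and shControl was past 2-fold on both days, and that between shMLL1 and shControl on neither.

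Runx1 was lower at day 7 in shControl and shMLL1, but in shNFIB it stayed near its day 0 level. The gene (ENSMUSG00000022952) lies at chr16:92601466-92826149 on the minus strand. At day 0 it had 705 counts (22.1 CPM) in shControl, 682 counts (21.6 CPM) in shNFIB and 719 counts (23.8 CPM) in shMLL1, and at day 7 it had 318 counts (10.4 CPM), 582 counts (19.7 CPM) and 195 counts (7.99 CPM). The day 0 libraries had overlapping intervals, and at day 7 shNFIB was the highest of the 3. The log2 day response was -1.08 (-1.28 to -0.89) in shControl, -0.13 (-0.30 to 0.03) in shNFIB and -1.58 (-1.81 to -1.35) in shMLL1. The knockdown lines differed from shControl in opposite directions: the response differed by 0.95 (0.70 to 1.2) in shNFIB and by -0.49 (-0.79 to -0.20) in shMLL1. At day 7 Runx1 was 1.89-fold higher in shNFIB than in shControl (log2 ratio 0.92, interval 0.72 to 1.1), within 2-fold, and in shMLL1 the ratio was -0.38 (-0.65 to -0.12).

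Counts of different genes can be compared only per length. Per kb of exon, the order of the 3 Runx genes changed between the days (see the stacked plot of Runx levels). In shControl at day 0 the level was 6.98 CPM per kb for Runx3, 3.71 for Runx2 and 1.84 for Runx1, and at day 7 it was 13.2 CPM per kb for Runx2, 0.868 for Runx1 and 0.715 for Runx3, the intervals of the last pair overlapping. Runx2 made up 29.6% (28.0% to 31.3%) of the summed Runx level in shControl at day 0 and 89.3% (88.2% to 90.3%) at day 7. In shNFIB the share of Runx2 was 44.3% at day 0 and 64.9% at day 7, and in shMLL1 38.1% and 76.6%. The share of Runx3 was 55.7% in shControl, 33.3% in shNFIB and 41.2% in shMLL1 at day 0, and 4.21% to 10.7% at day 7. Runx2 was thus the largest Runx gene per length in all day 7 libraries, also in the knockdown lines, where its own ratio between the days was near 0. Runx1 made up 30.9% of the sum in shNFIB at day 7, against 5.86% in shControl and 12.7% in shMLL1.

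The summed Runx level went from 12.5 to 14.8 CPM per kb in shControl. In shNFIB it went from 8.03 to 5.30 and in shMLL1 from 9.56 to 5.22. At day 7 the shControl sum was thus the highest and both knockdown sums were near each other, whereas the composition of the sum differed between the knockdown lines.

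**Figure D3:**
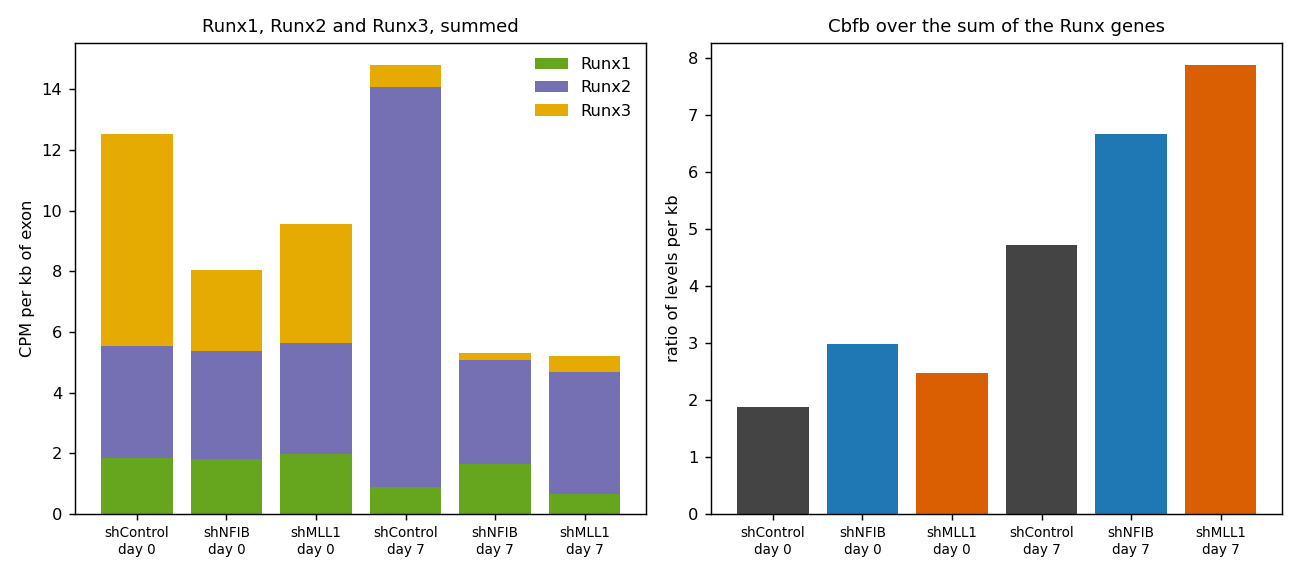
Left, levels of Runx1, Runx2 and Runx3 in CPM per kb of exon, stacked for each of the 6 libraries; right, the level of Cbfb per kb divided by that sum. The sum is 14.8 CPM per kb in shControl at day 7, 89.3% of it Runx2, and 5.22 to 5.30 in the knockdown lines at day 7, where the Cbfb ratio reaches 6.67 and 7.88.

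Cbfb, the partner subunit, had higher CPM at day 7 than at day 0 in every line, most in shControl. The gene (ENSMUSG00000031885) lies at chr8:105170674-105217989 on the plus strand. It had 2606 counts (81.6 CPM) in shControl, 2627 counts (83.2 CPM) in shNFIB and 2488 counts (82.4 CPM) in shMLL1 at day 0, and 7411 counts (243 CPM), 3634 counts (123 CPM) and 3493 counts (143 CPM) at day 7. The day 0 libraries had overlapping intervals, and at day 7 shControl was the highest and shNFIB the lowest. The log2 day response was 1.58 (1.51 to 1.64) in shControl, 0.56 (0.49 to 0.64) in shNFIB and 0.80 (0.72 to 0.87) in shMLL1. It was 1.01 log2 units smaller in shNFIB than in shControl (-1.01, interval -1.11 to -0.92) and 0.78 smaller in shMLL1 (-0.78, interval -0.88 to -0.68). At day 7 Cbfb was 1.98-fold lower in shNFIB than in shControl (log2 ratio -0.98, interval -1.04 to -0.93), next to the threshold, and 1.70-fold lower in shMLL1 (-0.76, interval -0.82 to -0.71).

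Per kb, Cbfb was the highest of the 6 genes in every library, at 23.4 to 23.9 CPM per kb at day 0 and 35.3 to 69.9 at day 7. Its level per kb was 1.87 times the Runx sum in shControl at day 0 and 4.72 times at day 7. In shNFIB the ratio went from 2.98 to 6.67 and in shMLL1 from 2.48 to 7.88. The ratio was therefore higher in the knockdown lines than in shControl on both days, although Cbfb itself was lower there at day 7.

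Sp7 (ENSMUSG00000060284, chr15:102356606-102367182, minus strand) was near the limit of detection. It had 1 count in each line at day 0. At day 7 it had 7 counts in shControl (0.23 CPM, interval 0.092 to 0.47), 2 counts in shNFIB and 0 counts in shMLL1 (interval up to 0.151 CPM). No library reached 10 counts, so Sp7 entered neither the fold comparisons nor the fits, and no ratio is given. The other Sp factors were detected unevenly: Sp1, Sp2, Sp3 and Sp4, the broadly made members, had 180 to 5217 counts, Sp8 had 5 to 15 counts at day 0 and 0 at day 7, and Sp5, Sp6 and Sp9 had at most 1 count. At day 7 Sp1 had 4408 counts in shNFIB and 2257 in shControl (log2 ratio 1.01), and in edgeR's day fit none of Sp1 to Sp4 passed, with Sp2 nearest (log2 change -0.64 ± 0.21 SE, adjusted p = 0.0539).

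Fhl2 was higher at day 7 in all 3 lines and differed little between them. The gene (ENSMUSG00000008136) lies at chr1:43123074-43196984 on the minus strand. At day 0 it had 395 counts (12.4 CPM) in shControl, 394 counts (12.5 CPM) in shNFIB and 317 counts (10.5 CPM) in shMLL1, and at day 7 it had 1106 counts (36.3 CPM), 952 counts (32.2 CPM) and 969 counts (39.7 CPM). The days did not overlap, and the lowest day 7 library, shNFIB, was above the highest day 0 library. The share of all genes whose days were apart in this way is not given here. The log2 day response was 1.55 (1.39 to 1.72) in shControl, 1.37 (1.2 to 1.54) in shNFIB and 1.92 (1.73 to 2.11) in shMLL1. Of the 15358 genes with enough counts in the 3 lines, 10.2% were past 2-fold higher at day 7 in all of them. The response in shNFIB differed from shControl by -0.18 (-0.42 to 0.05) and that in shMLL1 by 0.37 (0.12 to 0.61). All 4 differences of Fhl2 between a knockdown line and shControl within a day were between -0.24 and 0.13 on the log2 scale.

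The proximal promoter of Fhl2, chr1:43163912-43164211 on the minus strand, is printed because it holds a CArG box, the site of serum response factor (Srf), beside GC boxes. The capitals mark the CArG box (its pattern reads the same way on both strands) and 3 GC boxes.
Fhl2 proximal: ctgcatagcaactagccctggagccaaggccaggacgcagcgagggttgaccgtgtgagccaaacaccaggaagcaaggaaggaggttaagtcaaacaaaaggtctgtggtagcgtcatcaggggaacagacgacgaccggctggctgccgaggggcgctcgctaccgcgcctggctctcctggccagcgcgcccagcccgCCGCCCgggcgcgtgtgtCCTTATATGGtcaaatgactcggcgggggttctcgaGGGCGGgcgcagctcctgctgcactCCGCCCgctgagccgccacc
The CArG box begins 31 bases before the start. A CArG box was in 1.63% of all windows, and the distal window of Fhl2 held another, 96 bases before its start. The CArG box was added to the motifs after the sequences had been read. Srf itself passed the day fit of edgeR with a log2 change of -0.93 ± 0.19 (SE, adjusted p = 0.0117), and is named here outside the rule.

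**Figure D4:**
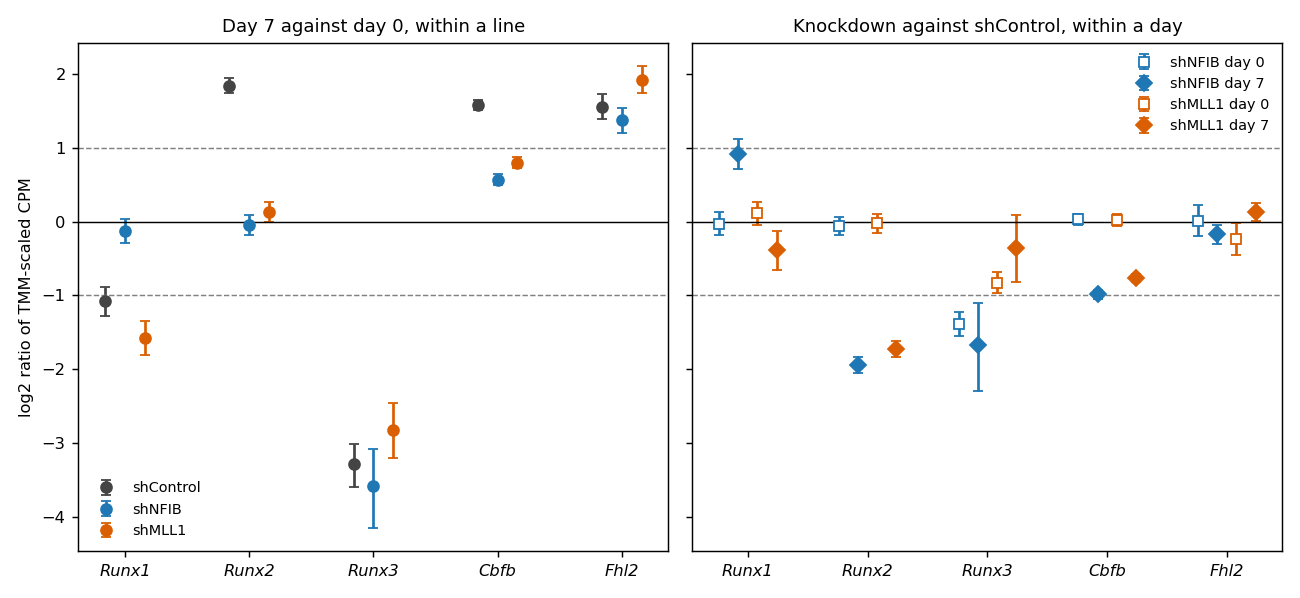
Log2 ratios of TMM-scaled CPM for Runx1, Runx2, Runx3, Cbfb and Fhl2, with 95% counting intervals: left, day 7 against day 0 within each line; right, each knockdown line against shControl within a day (open squares, day 0; diamonds, day 7). Dashed lines mark 2-fold; Runx2 is at 1.83 in shControl and near 0 in both knockdown lines on the left, and Runx3 is the 1 gene beyond -1 at day 0 on the right.

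Counted over the 5 genes with enough reads, shControl had 3 past 2-fold higher at day 7 (Runx2, Cbfb and Fhl2), where 23.0% of all genes tested were, and 2 past 2-fold lower (Runx1 and Runx3), where 14.9% were. In shNFIB Fhl2 was past 2-fold higher (16.5% of all genes) and Runx3 lower (13.9%). In shMLL1 Fhl2 was past 2-fold higher (25.8%) and Runx1 and Runx3 lower (19.8%). Between lines, 1 of the 5 genes was past 2-fold lower in shNFIB at day 0 (Runx3; 6.32% of all genes), and in shMLL1 none was past 2-fold in either direction (20.4%). At day 7, 2 of the 5 were past 2-fold lower in shNFIB (Runx2 and Runx3; 13.2%) and 1 in shMLL1 (Runx2; 6.95%). Near the threshold the scaling decided: Cbfb in shNFIB at day 7 was past 2-fold lower with DESeq2's size factors (-1.02) or library size alone (-1.09), and with library size alone Cbfb passed in shMLL1 between the days (1.00) and Runx1 in shControl did not (-0.98).

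A fit over all 6 libraries took the 3 lines as the replicates of a day, with the line as a block. The p-values of these fits rest on the spread between these lines, which carry different hairpins, and not between cultures of a line. In edgeR's day and line fits each gene had 2 residual degrees of freedom beside a median of 5.09 taken from all genes. The spread used for a gene was thus largely the one shared across genes. In edgeR's quasi-likelihood test, 2796 of 16660 genes rose at day 7 (16.8%) and 2760 fell (16.6%) at an adjusted p under 0.05. Among the 5 genes here, Fhl2 rose (log2 change 1.61 ± 0.21 SE, adjusted p = 0.00252, higher in 3 of 3 lines) and Cbfb rose (0.98 ± 0.25, adjusted p = 0.0237, higher in 3 of 3). Runx3 fell (-3.22 ± 0.26, adjusted p = 0.000664, lower in 3 of 3). Runx1 did not pass (-0.93 ± 0.30, adjusted p = 0.0534), and Runx2 did not pass either (0.63 ± 0.38, adjusted p = 0.227). Without shControl, Cbfb no longer passed (0.68, adjusted p = 0.177), and without shNFIB, Runx1 did (-1.33, adjusted p = 0.00989). DESeq2's test also called Runx1 (adjusted p = 0.0243), and so did edgeR without the filter on low counts (adjusted p = 0.0125).

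For shNFIB against shControl over both days, 19 genes rose (0.114%) and 44 fell (0.264%) in edgeR's test. None of the 5 passed, while 2 had an unadjusted p under 0.05, as 12.6% of all genes did: Runx3 (-1.50 ± 0.31, unadjusted p = 0.00171, adjusted p = 0.128) and Runx2 (-1.09 ± 0.46, unadjusted p = 0.0495, adjusted p = 0.397). DESeq2 called 1 of the 5, Runx3 (-1.53, adjusted p = 0.00178), and so did edgeR on the 4 libraries of these lines alone (-1.51, adjusted p = 0.0157). For shMLL1 against shControl, 2 genes rose (0.012%) and 3 fell (0.018%), and none of the 5 passed in edgeR or DESeq2 or had an unadjusted p under 0.05 (9.33% of all genes did), with Runx2 nearest (-0.98 ± 0.46, adjusted p = 0.573).

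The difference in day response between shControl and the knockdown lines was itself tested, with 1 residual degree of freedom beside a median of 10.72 taken from all genes. This fit gave shNFIB and shMLL1 a common response, so a disagreement between them counted as error. The difference was called for 1 gene in each direction of 16660 (0.006% each), and none of the 5 passed in edgeR or DESeq2. Runx2 had the lowest p of the 5 (difference 1.79 ± 0.55 SE, unadjusted p = 0.00712, adjusted p = 1.00) and ranked 57th of 16660 genes by unadjusted p, where 292 genes (1.75%) had one under 0.05. Cbfb followed (0.90 ± 0.56, unadjusted p = 0.139, adjusted p = 1.00), and Runx1, Runx3 and Fhl2 had estimates between -0.23 and -0.09 with standard errors of 0.59 to 0.71. For each of these last genes the knockdown lines differed from shControl in opposite directions, most for Runx1 (0.95 in shNFIB and -0.49 in shMLL1). The contrast of Runx2 between shControl and the knockdown lines therefore exceeds the counting error but does not pass a test across all genes.

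Genes whose proteins bind or control Runx factors were found in both directions. Of 45 such genes in the table, 6 were past 2-fold higher and 6 lower in shControl at day 7 among 42 tested, where 23.0% and 14.9% of all genes were, with a median log2 ratio of -0.13 beside -0.0007 over all genes. In shNFIB 3 were higher and 3 lower of 41 (16.5% and 13.9% of all genes, median -0.12 beside -0.032). In shMLL1 11 were higher and 4 lower of 42 (25.8% and 19.8% of all genes, median 0.34 beside 0.042). The day fit of edgeR called 5 higher and 5 lower of 42, where it called 16.8% and 16.6% of all genes, with a median of 0.063 beside 0.0009 over all genes. Those called higher were Zbtb16, Tle2, Smad1, Smad5 and Hdac7, and those called lower were Cebpb, Aes, Hdac4, Hdac5 and Smurf2, of which all but Zbtb16 and Tle2 were outside the rule for names and are given because the counts are small.

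Dlx5, a homeobox activator of Runx2, had 408 counts in shControl, 140 in shNFIB and 122 in shMLL1 at day 0, and 1601, 109 and 388 at day 7. Its log2 day response was 2.04 (1.88 to 2.2) in shControl and 1.97 (1.68 to 2.28) in shMLL1, and in shNFIB it was -0.27 with an interval that included 0. Unlike Runx2, Dlx5 was thus already lower in both knockdown lines at day 0, and higher at day 7 in shMLL1. Twist2, which binds the Runt domain and represses Runx2, went from 210 to 684 counts in shControl (log2 ratio 1.77), from 140 to 92 in shNFIB (-0.51) and from 92 to 45 in shMLL1.

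Zbtb16, a zinc finger factor known to act upstream of Runx2, had 0 counts in every day 0 library and 1296 in shControl, 133 in shNFIB and 154 in shMLL1 at day 7. Against the limit of 3 counts per library, it was at least 453-fold, 47.4-fold and 63.5-fold higher. Tle2, a corepressor of the Groucho family, rose in the day fit (2.14 ± 0.47 SE, adjusted p = 0.0159), the log2 response being 2.48 for shControl, 0.66 for shNFIB and 3.20 for shMLL1. Atf4, which cooperates with Runx2 in osteoblasts, had log2 responses of -1.08, -0.27 and -2.59 in the same order and did not pass the day fit (adjusted p = 0.0581). Runx1 had the same order of the lines, with shNFIB closest to 0 and shMLL1 lowest.

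**Figure D5:**
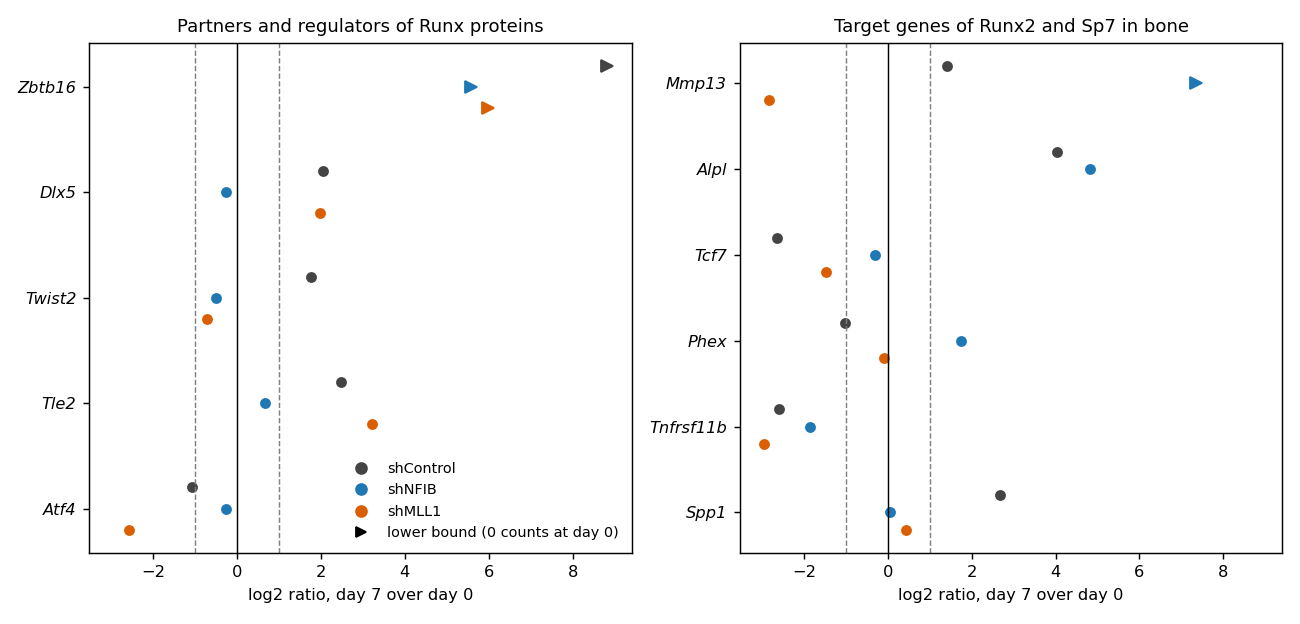
Log2 ratio of day 7 over day 0 in shControl, shNFIB and shMLL1 for 5 named partners and regulators of Runx proteins (left) and the 6 named bone target genes (right); dashed lines mark 2-fold, triangles are lower bounds for genes with 0 counts at day 0, and pairs with fewer than 10 counts in both libraries are left out. Spp1 is past 2-fold in shControl alone, and Zbtb16 is higher in all 3 lines.

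Of 25 genes known as targets of Runx2 and Sp7 in bone, 18 were tested in shControl. At day 7, 10 of them were past 2-fold higher and 6 lower, where 23.0% and 14.9% of all genes were. The median log2 ratio was 1.26 beside -0.0007 over all genes. Bglap (4 and 13 counts), Mmp13 (5 and 13), Dmp1 (3 and 15), Ihh (2 and 11) and Alpl (7 and 111) were among the higher. Each was tested only through the day 7 library, where it was high, so it could not be called lower. These genes also enter the median, and the genes tested differ between lines. In shNFIB 4 were higher and 5 lower of 16 (16.5% and 13.9% of all genes, median -0.13). In shMLL1 4 were higher and 4 lower of 15 (25.8% and 19.8% of all genes, median -0.04). At day 7, 8 of 18 were past 2-fold lower and 2 higher in shNFIB than in shControl (13.2% and 8.07% of all genes, median -0.74 beside -0.012). In shMLL1 6 were lower and 1 higher (6.95% and 8.59% of all genes, median -0.14 beside -0.032). Some of those lower at day 7 reached 10 counts only in shControl, so they could not be called higher. They were Bglap (13 counts in shControl, 3 in each knockdown line) and Ihh (11, with 3 in shNFIB and 2 in shMLL1). The same held for Dmp1 (15 and 0 counts) and Tcf7 (41 and 9) in shNFIB and for Alpl (111 and 2) in shMLL1. At day 0, 2 of 14 were lower and none higher in shNFIB (6.32% and 7.26% of all genes), and 6 were past 2-fold in either direction in shMLL1 (20.4%). In the day fit 2 of 16 rose, Alpl and Ifitm5, and 3 fell, Tnfrsf11b, Timp1 and Tcf7, where 16.8% of all genes rose and 16.6% fell.

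Spp1, which encodes osteopontin, had 6930 counts in shControl, 6843 in shNFIB and 6771 in shMLL1 at day 0, and 42101, 6682 and 7406 at day 7. Its log2 day response was 2.67 (2.63 to 2.71) in shControl, 0.06 (0.01 to 0.11) in shNFIB and 0.44 (0.39 to 0.48) in shMLL1. Like Runx2, Spp1 was level at day 0 and high in shControl at day 7. Alpl, the alkaline phosphatase of mineralising cells, went from 7 to 111 counts in shControl and from 8 to 215 in shNFIB, where Runx2 was not higher, and had 0 and 2 counts in shMLL1. It rose in the day fit (4.44 ± 0.53 SE, adjusted p = 0.00185).

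Mmp13, the collagenase of hypertrophic cartilage and bone, had 5 and 13 counts in shControl, 0 and 457 in shNFIB and 132 and 15 in shMLL1, so its day responses pointed in different directions. Phex, a bone peptidase, went from 53 to 25 counts in shControl, 78 to 244 in shNFIB and 200 to 151 in shMLL1. Tnfrsf11b, which encodes osteoprotegerin, fell in the day fit (-2.46 ± 0.26 SE, adjusted p = 0.00131) and was lower at day 7 in all 3 lines, from 11315 to 1802 counts in shControl, 2703 to 701 in shNFIB and 6861 to 721 in shMLL1. Tcf7, a Wnt pathway factor, also fell (-1.63 ± 0.51, adjusted p = 0.0468), with 267, 12 and 99 counts at day 0 and 41, 9 and 29 at day 7. Of the late osteoblast genes, Ibsp had 0 counts in all libraries and Bglap at most 13.

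Among the other FHL genes, none had the pattern of Fhl2. Fhl3 fell in the day fit (-1.13 ± 0.19 SE, adjusted p = 0.0063), the log2 response being -1.06 for shControl, -1.22 for shNFIB and -1.10 for shMLL1. Fhl1 went from 3426 to 3741 counts in shControl, 10291 to 6964 in shNFIB and 1010 to 1480 in shMLL1, so it differed more between the lines than between the days. Against shControl at day 0, Fhl1 was at a log2 ratio of 1.60 in shNFIB and -1.68 in shMLL1. Fhl4 had 36 to 76 counts and Fhl5 at most 3.

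Of 16 proteins known to bind Fhl2, the day fit called 3 higher and 4 lower, where it called 16.8% and 16.6% of all genes, with a median of 0.20 beside 0.0009 over all genes. The 3 were Zbtb16, which is also on the list of Runx partners, and the immediate early genes Fos (2.50 ± 0.35 SE, adjusted p = 0.00362) and Nr4a1 (1.35 ± 0.22, adjusted p = 0.00602). The 4 lower, named after their values were seen, were Srf, Itgb1, Ptk2 and Ski. Past 2-fold at day 7, 4 were higher and 3 lower in shControl (23.0% and 14.9% of all genes), 3 higher and none lower in shNFIB (16.5% and 13.9%), and 5 higher and 1 lower in shMLL1 (25.8% and 19.8%). Jun, the partner of Fos, had log2 responses of -0.52, 0.08 and 1.07 in shControl, shNFIB and shMLL1, Foxo1, a forkhead factor, -0.16, -0.51 and 1.31, and Itga7, an integrin subunit, 1.38, 0.99 and 0.58.

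Of 12 targets of Srf and its Mrtf coactivators, a set in which Fhl2 itself is often counted, the day fit called none higher and 5 lower of 11, where it called 16.8% and 16.6% of all genes, with a median of -0.88 beside 0.0009. They were Acta2, Actn1, Cnn2, Tpm1 and Ccn2, and Acta2, smooth muscle actin, fell by 3.02 on the log2 scale (-3.02 ± 0.29 SE, adjusted p = 0.000941). Past 2-fold at day 7, 4 of 11 were lower in shControl (14.9% of all genes), 2 in shNFIB (13.9%) and 4 in shMLL1 (19.8%). None was higher in any line, where 23.0%, 16.5% and 25.8% of all genes were. Fhl2 moved the other way in every line. Tagln, an actin-binding protein, had 115, 60 and 12 counts at day 0 and 22, 8 and 14 at day 7, and Myl9, a myosin light chain, had log2 responses of -0.45, -0.74 and -0.39 and did not pass.

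The genes whose pattern over the 6 libraries was closest were found among the 13339 genes that had 10 or more counts throughout, by the root mean square difference of log2 CPM after centring each gene. For Runx2 they were Mfsd4b1 (0.16), Gm7536 (0.23), Dnajc12 (0.23), Rspo2 (0.24) and Bmp4 (0.24). Rspo2 was at 486 CPM in shControl at day 7 and at 107 to 171 CPM elsewhere, and Bmp4 was at 94.3 CPM in the same library. For Fhl2 they were B3gnt8 (0.055), Gpr137c (0.087), Stx16 (0.091), Sult6b1 (0.094) and Sfi1 (0.095). For Runx1 they were Aatf (0.07), Utp18 (0.079) and Nolc1 (0.094), for Cbfb mt-Co2 (0.082), mt-Nd1 (0.089) and Mef2d (0.11), and for Runx3 Adgrg6 (0.33), Kif26b (0.37) and Selenoh (0.40). Runx3 thus had no neighbour as close as those of Runx1, Cbfb and Fhl2. These distances describe 6 libraries and carry no test.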

How the data were processed

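RNA-seq libraries (TruSeq, paired reads of 100 bp) were made from 6 conditions. Per the study's methods and the submitters' processing notes, the authors trimmed reads with Trimmomatic 0.39, mapped them to GRCm38 (mm10) with HISAT2 2.2.1, kept a mapping quality over 30 with SAMtools 1.12, removed PCR duplicates and counted reads per gene with htseq-count (HTSeq 0.11.1). The deposited values are raw counts per Ensembl gene, with no normalization, and 0 rows named no gene. The annotation release and strand setting of the counting are not given in the sources used here, so reads of antisense genes that share exons with Runx1 or Runx2 cannot be told apart from theirs.

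Symbols, positions and exon lengths came from GENCODE M21, and promoter windows from RefSeq on GRCm38.p6. Scaling (TMM) and the quasi-likelihood fits were done in edgeR 4.0.16 under R 4.3.3, the latter on the genes kept by filterByExpr and with Benjamini-Hochberg adjustment over all of them. DESeq2 1.42.0 was an alternative. The study's methods name edgeR, TMM, a false discovery rate and a fold over 2, but not the dispersion that pairs without replicates need, so pairs were compared by fold alone, with a prior count of 0.125. Intervals of ratios are exact (Clopper-Pearson), those of levels are Poisson and those of response differences and Runx shares are approximate, all made with scipy 1.17.1. The steps were tested on simulated counts. A comparison of Runt domains was not made here.

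The line pairs the days, since both libraries of a line come from the same cells: deviations from the day means correlated across genes at 0.382 for shControl, 0.421 for shNFIB and 0.248 for shMLL1. The line was therefore a block in the day fit.

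The members and lists were chosen with earlier results of these data known. Named genes were the 6 members, the Sp and FHL families, the hairpin targets, up to 6 genes per list (largest difference among those past 2-fold with at least 100 counts in a library of the pair, or called by the day fit), and the closest 5 genes to Runx2 and Fhl2 and 3 to the other members. Genes outside the rule were named after their values were seen, and some genes within it are not reported here. The lists cover Runx partners and regulators, bone targets, Sp and FHL genes, Fhl2 binding partners, Srf and Mrtf targets, and markers of mesenchymal, adipocyte, chondrocyte, hematopoietic and endothelial cells. Alternatives were other size factors, filters, prior counts and folds, thinned counts, each line left out, no block, 4 libraries alone and DESeq2's test. The length of the longest coding transcript, the CArG box and the shared word were added after the data were seen.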

Additional observations from a re-analysis of the deposited data

Results flagged for a closer look

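Fhl2 in shMLL1 was below shControl at day 0 (log2 ratio -0.24, interval -0.45 to -0.02) and above it at day 7 (0.13, interval 0.004 to 0.26). It stands out because both counting intervals leave out 0 and the directions are opposite. The difference was not tested across replicates, since each value compares 1 library with 1 library, and both ratios are within 2-fold.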

How the results depend on the processing

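Without the replicate block the day fit called 3896 genes instead of 5556, and the same 3 of the 5 tested members, Fhl2, Cbfb and Runx3; removing the block changed no member's call. Leaving out a line gave 2583 to 5201 genes, the lowest without shControl, and 2 to 4 members. Genes called for shNFIB numbered 63, and 688 without the filter, 615 with DESeq2 and 823 on 4 libraries, with 1 member, Runx3, in each of these against 0. For shMLL1 the numbers were 5, 526, 408 and 217, and for the difference in response 2, 24 without the filter and 7 with DESeq2. Fhl2 in shMLL1 turned from -0.04 to 0.0074 in DESeq2. With a knockdown line alone, shControl minus that line, the difference in response ranged from -0.47 to 0.29 for Runx3, -0.37 to 0.18 for Fhl2 and -0.95 to 0.49 for Runx1.

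Genes past the fold moved with the filter and the fold. Without a filter, the 7 pairs, in the order shControl, shNFIB and shMLL1 between days, shNFIB and shMLL1 at day 0, and shNFIB and shMLL1 at day 7, gave 12666, 11066, 14789, 7831, 9650, 9364 and 9062 genes. With at least 100 counts they gave 3362, 2571, 4351, 793, 1351, 1524 and 872. At 1.5-fold the shMLL1 day response stayed within 1.5 times its number, and the other pairs gave 9836, 7990, 4428, 6311, 7027 and 5139. Members past 1.5-fold were 1 in shMLL1 at day 0, 4 in shNFIB at day 7 and 2 in shMLL1 at day 7, where no filter also gave 2 by letting Sp7 in.

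No member ratio past 2-fold changed sign. Of the 35 ratios, library size alone moved 10 and thinning moved 4 beyond the counting interval, while DESeq2's size factors and a prior count of 2 moved none. The filters and the fold leave a ratio as it is. Library size alone shifted all ratios by up to 0.21. With the longest coding transcript as length, 14 of 18 Runx shares moved beyond their counting interval. At day 7 Runx2 then made up 87.0% of the Runx sum in shControl, 56.3% in shNFIB and 72.4% in shMLL1. It remained the largest in each, and Runx1 made up 40.2% in shNFIB. In shNFIB at day 0 Runx1 (30.7%) stood above Runx3 (28.7%) with this length. The causes were not tested. Sp7 had fewer than 10 counts in every library, so a difference was not detectable at this depth, and 1 library per condition limits every pair.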

Other observations

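Several annotated genes lie within the loci. Supt3, on the opposite strand at the first promoter of Runx2, shares no exon bases with Runx2 in the annotation and had 889 counts in shControl, 789 in shNFIB and 810 in shMLL1 at day 0, and 519, 565 and 334 at day 7. It was thus lower at day 7 in all 3 lines, while Runx2 was higher in shControl. The antisense gene Runx2os1 shares 519 exon bases with Runx2 and had 15 to 56 counts, against at least 862 for Runx2. Gm26626 shares 106 exon bases with Runx1 and had 1 to 10 counts, against at least 195 for Runx1. The pseudogene Gm8210, on the other strand within Fhl2 and with no exon bases shared, had 518 to 1604 counts and was higher at day 0 than at day 7 in every line.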
